A study of Mus musculus with 8 samples.

Results

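The 40 genes described here are transcribed in G2 and mitosis and build, drive or leave the mitotic spindle. They were taken from a list of gene symbols and found on the array through the RefSeq accession of each probe, with the brightest probe standing for a gene that had several. All 40 of 40 were among the 21150 genes the array could name, and 39 were bright enough to be tested, against 13494 genes tested in all. The exception was Aurkb, the chromosomal passenger kinase, whose single probe was well above background on 0 of 8 arrays.

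RNA came from mouse thymus, from sorted CD4 single-positive thymocytes, the stage that has kept CD4 and lost CD8, and was hybridised to 8 one-colour arrays. The 4 groups had 2 biological replicates each, per the labels. The Nr4a-TKO preTreg group (genotype Nr4a-TKO) held cells sorted as CD25-high, GITR-high and Nr4a3-high and labelled as precursors of regulatory T cells, and the Foxp3-KO preTreg group (genotype Foxp3-KO) held precursors sorted as CD25-high and positive for the Foxp3 reporter. The WT Treg group held thymic regulatory T cells of wild-type mice, sorted by Foxp3, and the WT Tconv group held their CD25-low conventional T cells. Cells were lysed fresh, with no culture and no treatment. No wild-type precursor group was used here, so genotype and sort gate change together wherever a precursor group is set against a wild-type group. The ages of the mice, the parts deleted in each allele and the cells in which deletion took place are not stated in the labels.

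As background, entry into mitosis is set by CDK1 with cyclin B, joined by the Polo and Aurora kinases. Kinesins and microtubule-binding proteins shape the spindle, kinetochore proteins tie it to the centromeres, and the anaphase-promoting complex with CDC20 ends mitosis by marking securin and cyclin B for destruction. In resting cells these genes are held silent by the DREAM complex, which binds a promoter element called the CHR (cell cycle genes homology region), and in dividing cells the same element is used by B-MYB and FOXM1, often beside CCAAT boxes bound by NF-Y. In the thymus most division takes place before the single-positive stage.

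That shared element is shown in the promoters of the members. RefSeq windows of GRCm38.p6, from 250 bases before to 50 after a gene's start, could be matched by symbol to 34 of the 40 members. The CHR core, TTTGAA on either strand, stood in the windows of 25 of them (73.5%), against 17.9% of all 32851 windows of the same length. CCAAT, also on either strand, stood in 24 (70.6%), against 37.4% of all windows. Both were present in 21 members (61.8%) and in 6.95% of all windows. Prc1 and Ect2 each had 2 windows, and a match in either was counted.

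The stretches below run 5' to 3' in the direction of the gene, 150 bases each, from 120 before the start to 30 after it, with CHR cores and CCAAT boxes in capitals. The first 4 are shown because they hold both elements and belong to genes with large differences in WT Treg: Ccnb2 at chr9:70421525-70421674 on the minus strand, Cdk1 at chr10:69352883-69353032 on the minus strand, Kif11 at chr19:37376262-37376411 on the plus strand and Top2a at chr11:99024160-99024309 on the minus strand.
Ccnb2: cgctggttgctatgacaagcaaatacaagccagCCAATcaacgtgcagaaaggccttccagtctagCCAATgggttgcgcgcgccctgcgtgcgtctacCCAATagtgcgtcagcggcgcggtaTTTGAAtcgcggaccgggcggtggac
Cdk1: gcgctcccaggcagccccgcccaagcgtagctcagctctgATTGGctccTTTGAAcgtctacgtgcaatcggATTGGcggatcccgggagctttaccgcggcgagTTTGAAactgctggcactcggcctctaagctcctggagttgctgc
Kif11: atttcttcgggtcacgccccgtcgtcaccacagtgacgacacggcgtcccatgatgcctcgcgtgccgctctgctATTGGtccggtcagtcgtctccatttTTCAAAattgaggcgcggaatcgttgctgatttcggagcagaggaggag
Top2a: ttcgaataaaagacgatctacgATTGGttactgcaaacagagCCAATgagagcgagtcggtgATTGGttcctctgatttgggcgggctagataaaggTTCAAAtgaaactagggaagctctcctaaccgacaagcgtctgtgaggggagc

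The other 4 are shown for contrast, and like the first 4 they were picked after the expression values were seen. Ccnb1 (chr13:100786457-100786606 on the minus strand) holds CCAAT boxes without the CHR core, and Cenpa (chr5:30666766-30666915 on the plus strand) holds both elements. Pttg1 (chr11:43425952-43426101 on the minus strand) and Melk (chr4:44300797-44300946 on the plus strand) hold neither. The related TTTAAA, left in small letters here, also stands in the Ccnb1 and Cenpa stretches.
Ccnb1: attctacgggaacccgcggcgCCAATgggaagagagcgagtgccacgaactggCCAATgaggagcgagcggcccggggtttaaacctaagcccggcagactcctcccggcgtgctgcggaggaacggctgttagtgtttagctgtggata
Cenpa: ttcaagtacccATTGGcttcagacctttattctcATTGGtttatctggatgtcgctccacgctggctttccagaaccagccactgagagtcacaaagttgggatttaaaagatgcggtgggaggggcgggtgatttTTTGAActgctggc
Pttg1: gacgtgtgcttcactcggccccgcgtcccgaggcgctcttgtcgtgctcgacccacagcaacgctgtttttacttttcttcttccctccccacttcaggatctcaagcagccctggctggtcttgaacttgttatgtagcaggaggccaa
Melk: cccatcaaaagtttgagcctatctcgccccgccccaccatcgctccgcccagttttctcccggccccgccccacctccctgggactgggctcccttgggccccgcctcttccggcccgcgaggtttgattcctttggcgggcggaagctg
Windows with neither element numbered 6 among the members (17.6%: Melk, Nusap1, Nuf2, Birc5, Mad2l1 and Pttg1), against 51.7% of all windows. Of these, Nusap1, Nuf2, Birc5 and Mad2l1 were called lower in WT Treg than in WT Tconv, and Melk and Pttg1 were not. Cenpa, which holds both elements, was not called lower either. Whether the elements go with the fall in WT Treg was not tested. In 22 members a CHR core began within 40 bases of the start. That count was not made over all windows, so it shows no preference of the members for this position. In all, 5 motifs were looked at. The related TTTAAA stood in 9 of the 34 members (26.5%; 13.2% of all windows), TTCGAA in 3 (8.82%; 1.56%) and the E2F-type site GGCGGGAA in 0, against 2.19% of all windows. These are matches of letters, and no binding was measured.

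**Figure D1:**
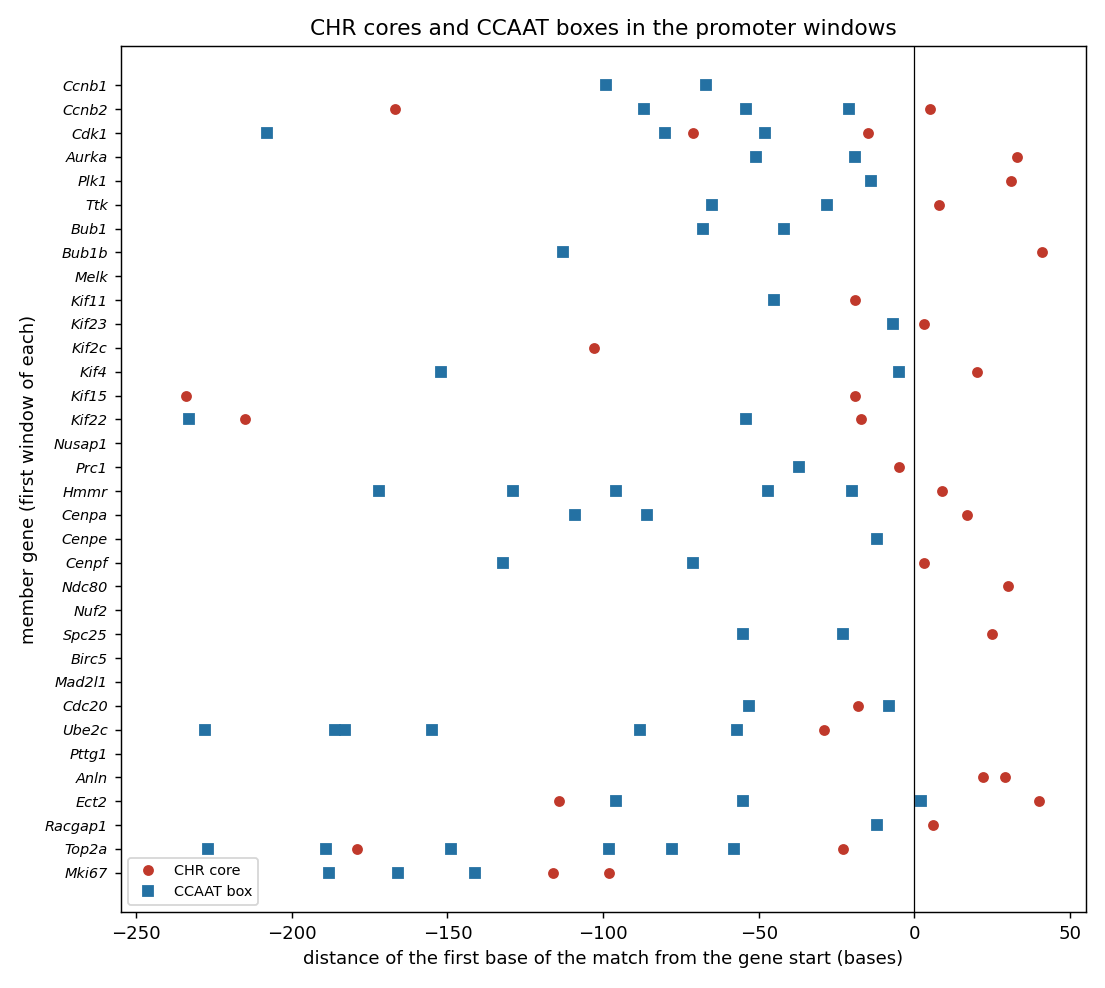
Positions of the CHR core (red circles) and the CCAAT box (blue squares) in the first promoter window of the 34 members that had a window. The horizontal axis is the distance in bases of the first base of a match from the gene start. Genes run down the page by role. Red circles gather near the start line and blue squares lie mostly to its left, and positions over all windows were not counted.

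Levels are given as log2 of the processed signal minus the log2 of the array's 75th percentile, so that 0 is the brightness of a probe at that percentile. Levels of different genes come from different probes and are not compared with each other. Aurkb, below background throughout, read -5.31 and -5.82 in Nr4a-TKO, -5.37 and -5.54 in Foxp3-KO, -5.90 and -5.90 in WT Treg, and -5.33 and -4.92 in WT Tconv, values that carry no order. Of the spots on an array, 48.6% to 53.0% were well above background, the 75th percentile lay at 8.9 to 10.43 times the local background, and no member's result rests on a saturated spot, since there were 0. Replicates correlated at r = 0.990 in Nr4a-TKO, 0.976 in Foxp3-KO, 0.990 in WT Treg and 0.997 in WT Tconv across the genes tested, which are not independent. The members' median gap between replicates was 0.12 in Nr4a-TKO, 0.23 in Foxp3-KO, 0.12 in WT Treg and 0.06 in WT Tconv. Foxp3 itself averaged 3.34 in Nr4a-TKO, 1.68 in Foxp3-KO, 4.70 in WT Treg and -3.77 in WT Tconv, and Nr4a1, Nr4a2 and Nr4a3 gave signal in the Nr4a-TKO group. Where those probes lie relative to the deleted parts is not given, so these values do not check the genotypes.

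The mitotic genes were low in the mature wild-type regulatory T cells. Against WT Tconv, 36 of the 39 members tested fell in WT Treg and 0 rose (limma, Benjamini-Hochberg adjusted over all 13494 genes, threshold 0.05). Of all tested genes 20.2% were called lower and 14.0% higher. The members' median difference was -1.20 on the log2 scale and that of all genes tested was -0.08. Over all 4 groups, both WT Treg arrays read below all 6 other arrays for 37 of the 39 members, where 11.0% of all genes tested did so. The exceptions were Melk and Pttg1. Among the 36 members above background on all 8 arrays, 33 were lower and 1 higher in WT Treg than in WT Tconv. Both Nr4a-TKO arrays read above all others for 16 members (19.3% of all genes) and below for 0 (22.1%), and both WT Tconv arrays read below all others for 1, Pttg1 (14.6%). The Foxp3-KO arrays stood above all others for 0 (3.83%) and below for 0 (7.14%), and the WT Treg arrays above for 0 (8.60%). RNA was pooled from many cells, so fewer dividing cells and less mitotic RNA per cell cannot be told apart. WT Treg and Foxp3-KO shared a row of the slide, and Nr4a-TKO and WT Tconv shared the other. In comparisons between rows, group and row cannot be told apart.

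The precursor groups did not share that low level. The median over the 40 members was 1.71 on each of the Nr4a-TKO arrays, 1.32 and 1.33 on the Foxp3-KO arrays, 0.50 and 0.44 on the WT Treg arrays, and 1.52 and 1.47 on the WT Tconv arrays. Of the members tested, 36 were higher in Nr4a-TKO preTreg than in WT Treg and 0 were lower, where 18.5% of all genes were called higher and 16.5% lower. In Foxp3-KO preTreg 29 were higher than in WT Treg and 0 were lower, where 3.28% of all genes were called higher and 3.10% lower. The WT Treg and WT Tconv arrays are shared between these comparisons, so the counts are not independent of each other.

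**Figure D2:**
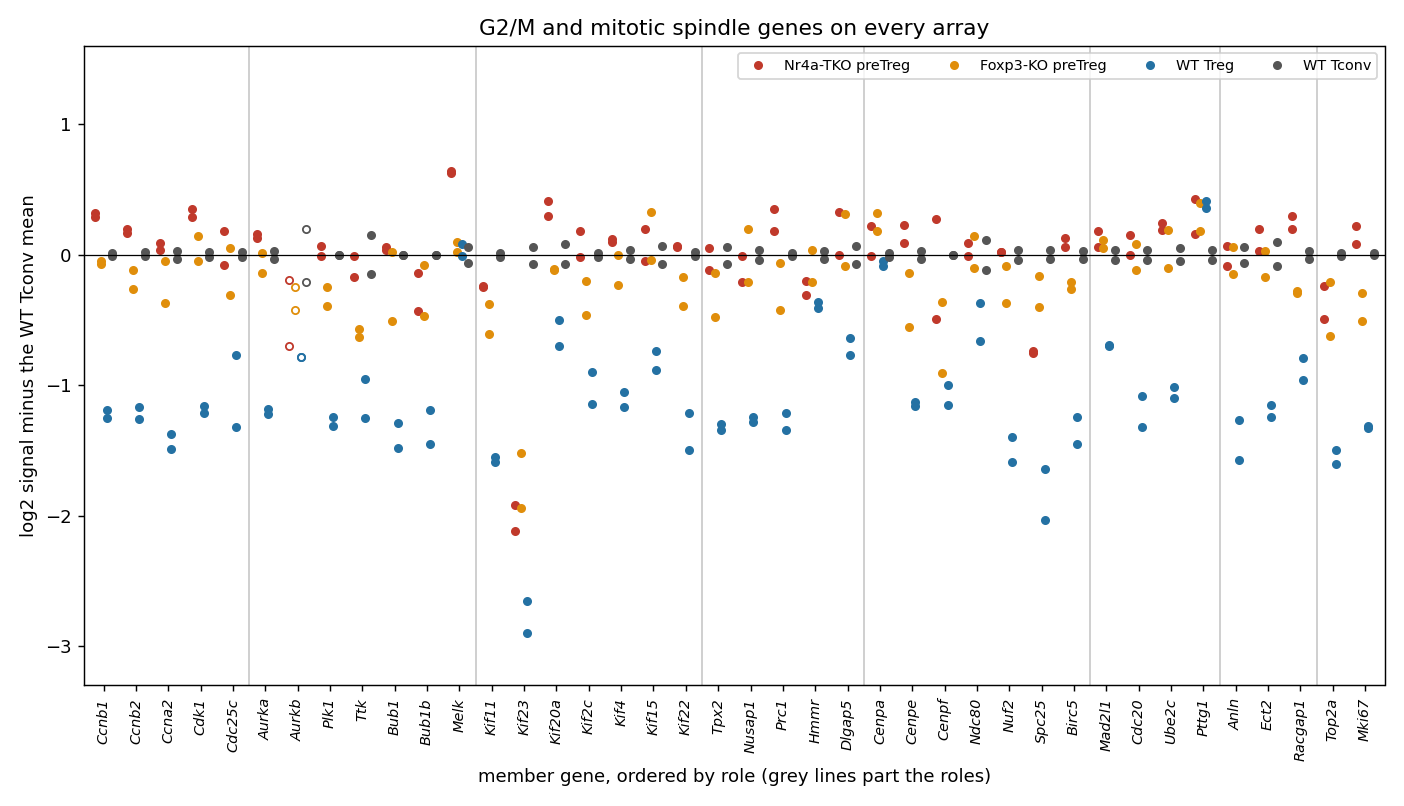
Log2 signal of the 40 members on every array, minus the mean of the 2 WT Tconv arrays, with genes along the horizontal axis by role and grey lines between roles. Each point is an array, coloured by group, and open points mark Aurkb, which was not tested. Blue WT Treg points lie below the rest except for Melk and Pttg1, and all groups but WT Tconv are low for Kif23.

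Of the cyclins, CDK1 and its phosphatase, 5 of 5 were lower in WT Treg than in WT Tconv and 5 of 5 were higher in Nr4a-TKO than in WT Treg. Ccnb1, cyclin B1, read 1.86 and 1.83 in Nr4a-TKO, 1.47 and 1.49 in Foxp3-KO, 0.35 and 0.29 in WT Treg, and 1.53 and 1.55 in WT Tconv. Cyclin A2, Ccna2, read 2.24 and 2.29 in Nr4a-TKO, 1.83 and 2.15 in Foxp3-KO, 0.83 and 0.71 in WT Treg, and 2.17 and 2.23 in WT Tconv. In both genes the WT Treg arrays stood apart. Outside WT Treg, the first Foxp3-KO array was the lowest for Ccna2, at 1.83. Ccnb1 fell by 1.22 ± 0.06 (SE) in WT Treg against WT Tconv, 2.33-fold, with an adjusted p of 0.000335, and Ccna2 fell by 1.42 ± 0.12, with an adjusted p of 0.00128.

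Cdk1, the kinase that cyclin B activates, read 0.63 and 0.57 in Nr4a-TKO, 0.23 and 0.42 in Foxp3-KO, -0.88 and -0.93 in WT Treg, and 0.30 and 0.26 in WT Tconv. It was higher in Nr4a-TKO than in WT Tconv on both arrays, by 0.31 ± 0.09 (adjusted p = 0.0314), and lower in WT Treg than in WT Tconv by a difference of -1.19 ± 0.09 (adjusted p = 0.000802). Its probes disagreed. In a fit over all probes, a dimmer Cdk1 probe, above background on 6 of 8 arrays, gave -1.49 ± 0.49 for Nr4a-TKO minus WT Tconv (adjusted p = 0.0582) and -0.58 ± 0.49 for WT Treg minus WT Tconv (adjusted p = 0.442), and the remaining probe was above background on 0 arrays. With the probes averaged, the Nr4a-TKO difference from WT Tconv was -0.94 and was not called. The phosphatase gene Cdc25c, whose product removes the brake on CDK1, was dim, at -2.76 and -2.50 in Nr4a-TKO, -2.63 and -2.99 in Foxp3-KO, -3.45 and -4.00 in WT Treg, and -2.66 and -2.70 in WT Tconv. The second WT Treg array was below background for Cdc25c, and the difference from WT Tconv was -1.04 ± 0.22 (adjusted p = 0.018).

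Of the mitotic kinases, 5 of the 6 tested fell in WT Treg against WT Tconv and 6 of 6 were higher in Nr4a-TKO than in WT Treg. Plk1, the Polo kinase, read 3.01 and 3.09 in Nr4a-TKO, 2.63 and 2.77 in Foxp3-KO, 1.78 and 1.71 in WT Treg, and 3.02 and 3.02 in WT Tconv. Bub1, a spindle checkpoint kinase, read 0.16 and 0.14 in Nr4a-TKO, -0.41 and 0.12 in Foxp3-KO, -1.38 and -1.19 in WT Treg, and 0.10 and 0.10 in WT Tconv. The Foxp3-KO replicates of Bub1 lay apart, with the second at the WT Tconv level. Differences of WT Treg from WT Tconv were -1.27 ± 0.08 for Plk1 (adjusted p = 0.000536) and -1.38 ± 0.18 for Bub1 (adjusted p = 0.00436). Aurka, the centrosomal Aurora kinase, differed by -1.20 ± 0.08 and Bub1b, the checkpoint protein BUBR1, by -1.32 ± 0.17.

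Ttk, the checkpoint kinase MPS1, was well above background on 4 arrays, those of Nr4a-TKO and WT Tconv, and is known elsewhere only by a bound. It was at least 1.69-fold lower in WT Treg than in WT Tconv (adjusted p = 0.00507), at least 1.37-fold lower in Foxp3-KO, again against WT Tconv (adjusted p = 0.0398), and at least 1.28-fold higher in Nr4a-TKO than in Foxp3-KO (adjusted p = 0.0484). Ttk was tested only because it was above background in Nr4a-TKO and WT Tconv, its brightest groups, so the filter favoured these directions. Here and wherever a bound is given, the adjusted p is from the limma fit to the measured signals. The Ttk calls held in 17, 6 and 3 of 18 alternatives. With normexp background correction the Ttk differences were -0.08, 0.00 and 0.02 (adjusted p = 0.589, 0.996 and 0.89). Each bound sets the mean of the brighter group against the dimmest signal well above background on the arrays of the other, or against the gene's own signal there where that was higher. Melk, a kinase whose mRNA marks dividing cells, broke the pattern. It read 0.48 and 0.49 in Nr4a-TKO, -0.13 and -0.05 in Foxp3-KO, -0.16 and -0.07 in WT Treg, and -0.09 and -0.21 in WT Tconv. Only the Nr4a-TKO arrays stood apart for Melk, higher than WT Tconv by 0.64 ± 0.08 (adjusted p = 0.00272), than WT Treg by 0.60 ± 0.08 (adjusted p = 0.00457) and than Foxp3-KO by 0.58 ± 0.08 (adjusted p = 0.00604).

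All 7 kinesin motors fell in WT Treg against WT Tconv, and 7 were higher in Nr4a-TKO and 6 in Foxp3-KO than in WT Treg. Kif23, the centralspindlin motor of the spindle midzone, read -0.47 and -0.67 in Nr4a-TKO, -0.49 and -0.07 in Foxp3-KO, -1.20 and -1.45 in WT Treg, and 1.51 and 1.38 in WT Tconv. Both WT Tconv arrays lay above all 6 others for Kif23 and 4 more members, Bub1b, Kif11, Spc25 and Top2a, where 26.4% of all genes tested did so. Kif23 differed from WT Tconv by -2.02 ± 0.17 in Nr4a-TKO (adjusted p = 0.00103), by -1.73 ± 0.17 in Foxp3-KO (adjusted p = 0.00384) and by -2.78 ± 0.17 in WT Treg (adjusted p = 0.000515). Its partner in centralspindlin, Racgap1, read 2.44 and 2.34 in Nr4a-TKO, 1.85 and 1.86 in Foxp3-KO, 1.18 and 1.35 in WT Treg, and 2.17 and 2.11 in WT Tconv. Racgap1 differed from WT Tconv by 0.25 ± 0.09 in Nr4a-TKO (adjusted p = 0.0617), by -0.28 ± 0.09 in Foxp3-KO (adjusted p = 0.0679) and by -0.87 ± 0.09 in WT Treg (adjusted p = 0.00202). Kif23 was read by a single probe and Racgap1 by the brighter of 2.

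The other kinesins were read as follows. Kif11, the motor that pushes spindle poles apart, differed from WT Tconv by -0.24 ± 0.09 in Nr4a-TKO (adjusted p = 0.0767), by -0.49 ± 0.09 in Foxp3-KO (adjusted p = 0.0198) and by -1.56 ± 0.09 in WT Treg (adjusted p = 0.000469). Kif15, which helps KIF11 hold the spindle open, had the smallest mean absolute difference of the kinesins over the 6 comparisons. It read -1.35 and -1.60 in Nr4a-TKO, -1.22 and -1.59 in Foxp3-KO, -2.43 and -2.29 in WT Treg, and -1.62 and -1.48 in WT Tconv. Kif20a, a midzone motor, was higher in Nr4a-TKO than in WT Tconv by 0.35 ± 0.10 (adjusted p = 0.0343) and lower in WT Treg by a difference of -0.60 ± 0.10 (adjusted p = 0.00924). Kif2c, Kif4 and Kif22, a microtubule depolymerase and a pair of chromosome-bound motors, differed by -1.02, -1.11 and -1.36 in WT Treg against WT Tconv, and none of them was called in either precursor group against WT Tconv. In a limma fit over all probes, the dimmer Kif2c probe gave -1.06 ± 0.33 for WT Treg minus WT Tconv (adjusted p = 0.0705).

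Among the 5 proteins that bind spindle microtubules, 5 fell in WT Treg against WT Tconv and 0 were called in either precursor group against WT Tconv. Prc1, which bundles antiparallel microtubules at the midzone, read 2.97 and 2.80 in Nr4a-TKO, 2.20 and 2.56 in Foxp3-KO, 1.28 and 1.41 in WT Treg, and 2.63 and 2.61 in WT Tconv. Hmmr, a spindle assembly protein and hyaluronan receptor, read 1.74 and 1.85 in Nr4a-TKO, 1.84 and 2.09 in Foxp3-KO, 1.64 and 1.69 in WT Treg, and 2.08 and 2.02 in WT Tconv. The Hmmr difference was -0.39 ± 0.10 in WT Treg against WT Tconv (adjusted p = 0.0372) and 0.13 ± 0.10 in Nr4a-TKO against WT Treg (adjusted p = 0.375). The first of these was called in 12 of 19 alternatives and lost without any one of the Nr4a-TKO, WT Treg or WT Tconv arrays, with an adjusted p of up to 0.176. Prc1 differed by -1.28 ± 0.14 and 1.54 ± 0.14 in the same comparisons. Tpx2, which activates Aurora A, and Nusap1 differed by -1.31 and -1.26 in WT Treg against WT Tconv, and Dlgap5 by -0.70.

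Of the 7 centromere and kinetochore genes, 6 fell in WT Treg against WT Tconv. Spc25, of the NDC80 complex that grips microtubules, read 3.10 and 3.11 in Nr4a-TKO, 3.45 and 3.69 in Foxp3-KO, 2.21 and 1.82 in WT Treg, and 3.89 and 3.82 in WT Tconv. Besides its difference of -1.84 ± 0.15 in WT Treg against WT Tconv (adjusted p = 0.00121), Spc25 was the only member with Kif23 to fall in Nr4a-TKO against WT Tconv, with a difference of -0.75 ± 0.15 (adjusted p = 0.0123). Neither partner in the complex was called there: the Nr4a-TKO difference from WT Tconv was 0.05 ± 0.15 for Ndc80 and 0.02 ± 0.12 for Nuf2, which differed by -0.51 ± 0.15 and -1.50 ± 0.12 in WT Treg.

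Cenpa, the centromeric histone H3 variant, read 2.39 and 2.16 in Nr4a-TKO, 2.35 and 2.49 in Foxp3-KO, 2.08 and 2.12 in WT Treg, and 2.18 and 2.15 in WT Tconv. The WT Treg arrays were again lowest, but by little, and the difference from WT Tconv was -0.07 ± 0.10 (adjusted p = 0.65). Cenpa was called in 0 of the 6 comparisons, and its promoter stretch printed earlier holds both elements. Birc5, the chromosomal passenger survivin, and Cenpe, the kinetochore motor, differed by -1.35 ± 0.09 and -1.15 ± 0.14 in WT Treg against WT Tconv. Cenpf was above background on 3 of 8 arrays, both of WT Tconv and the first of Nr4a-TKO, and was at least 1.24-fold lower in WT Treg than in WT Tconv (adjusted p = 0.0367). It was tested only because it was above background in WT Tconv, the group where it was brightest, so the filter favoured this direction. The call held in 10 of 18 alternatives, and was lost without any one of the WT Treg or WT Tconv arrays and with normexp background correction, which gave -0.05 (adjusted p = 0.688).

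Among the 4 checkpoint and anaphase genes, Mad2l1, Cdc20 and Ube2c fell in WT Treg and Pttg1 did not. Cdc20, which brings substrates to the anaphase-promoting complex, read 3.33 and 3.18 in Nr4a-TKO, 3.06 and 3.26 in Foxp3-KO, 2.10 and 1.86 in WT Treg, and 3.14 and 3.22 in WT Tconv. Pttg1, securin, which holds back separase until anaphase, read 4.52 and 4.25 in Nr4a-TKO, 4.49 and 4.27 in Foxp3-KO, 4.50 and 4.45 in WT Treg, and 4.13 and 4.05 in WT Tconv. On this brighter Pttg1 probe the low group was WT Tconv, whose arrays lay under all 6 others. The WT Treg difference from WT Tconv was 0.39 ± 0.12 with an adjusted p of 0.0581, and over 19 alternatives that p ran from 0.0147 to 0.235, with 9 below the threshold. The dimmer Pttg1 probe did not have WT Tconv as its lowest group. In a limma fit over all probes it differed from WT Tconv by -0.06 ± 0.17 in Nr4a-TKO (adjusted p = 0.785), where the brighter gave 0.30. Its differences were 0.12 ± 0.17 in Foxp3-KO (adjusted p = 0.656) and 0.51 ± 0.17 in WT Treg (adjusted p = 0.0833). In WT Treg against WT Tconv, Cdc20 differed by -1.20 ± 0.12 (adjusted p = 0.00203), Ube2c, the ubiquitin-conjugating enzyme of the complex, by -1.06 ± 0.11, and Mad2l1, the checkpoint protein that inhibits CDC20, by -0.70 ± 0.08. In the limma fit over all probes, the dimmer Mad2l1 probes gave -0.48 ± 0.14 (adjusted p = 0.0611) and -0.66 ± 0.21 (adjusted p = 0.0702).

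The cytokinesis genes Anln, Ect2 and Racgap1 were lower in WT Treg than in WT Tconv, 3 of 3, and higher in both precursor groups than in WT Treg. Anln, anillin of the cleavage furrow, read 0.94 and 0.78 in Nr4a-TKO, 0.72 and 0.93 in Foxp3-KO, -0.40 and -0.70 in WT Treg, and 0.93 and 0.81 in WT Tconv. Its differences from WT Treg were 1.41 ± 0.14 in Nr4a-TKO (adjusted p = 0.00209) and 1.38 ± 0.14 in Foxp3-KO (adjusted p = 0.0102). Ect2, which activates RhoA at the furrow, differed from WT Treg by 1.31 ± 0.12 and 1.12 ± 0.12 in those groups.

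The most used proliferation marker, Mki67, read 5.10 and 4.96 in Nr4a-TKO, 4.37 and 4.59 in Foxp3-KO, 3.55 and 3.57 in WT Treg, and 4.89 and 4.88 in WT Tconv. Top2a, the topoisomerase that untangles sister chromatids, read 1.85 and 2.10 in Nr4a-TKO, 1.72 and 2.13 in Foxp3-KO, 0.84 and 0.74 in WT Treg, and 2.33 and 2.35 in WT Tconv. Mki67 read highest in Nr4a-TKO and Top2a in WT Tconv, and the WT Treg arrays were lowest for both. Neither gene was called in Nr4a-TKO against WT Tconv, where the differences were 0.14 for Mki67 and -0.36 for Top2a. In WT Treg against WT Tconv, Mki67 differed by -1.32 ± 0.10 (adjusted p = 0.000803) and Top2a by -1.55 ± 0.16 (adjusted p = 0.00218).

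**Figure D3:**
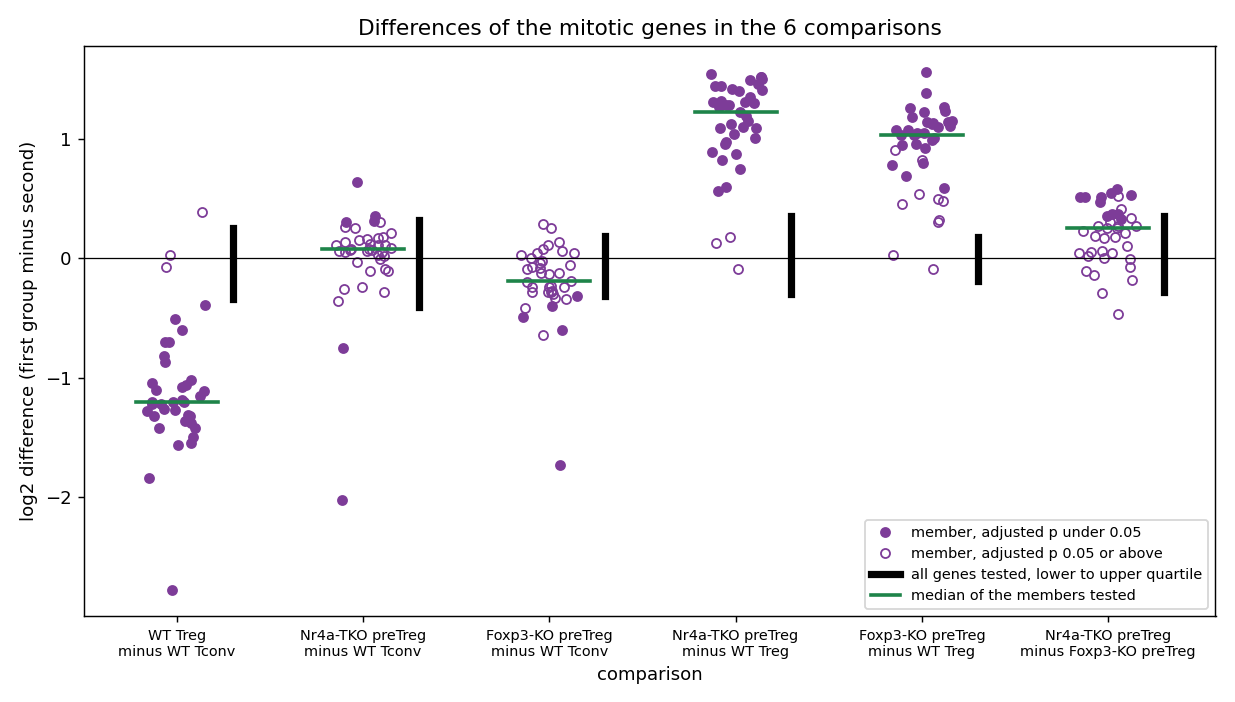
Log2 differences of the 39 members tested in the 6 comparisons along the horizontal axis, first-named group minus second. Filled circles had an adjusted p under 0.05, green bars are the members' medians (-1.20, 0.08, -0.19, 1.22, 1.03 and 0.25), and black bars span the quartiles of all 13494 genes tested. The members' medians lie outside the quartiles in the 3 comparisons that include WT Treg.

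Set against WT Tconv, few members were called in the precursor groups. In Nr4a-TKO preTreg 4 of 39 members rose (Ccnb1, Cdk1, Melk and Kif20a) and 2 fell (Kif23 and Spc25), where 21.2% and 27.2% of all genes were called higher and lower. The members' median was 0.08, beside -0.11 for all genes. Ccnb1 was higher by 0.30 ± 0.06 (adjusted p = 0.0144), a call lost with median scaling and with probes averaged. In a limma fit over all probes, its other probes gave 0.05 ± 0.17 (adjusted p = 0.816) and 0.33 ± 0.09 (adjusted p = 0.0346). Without either WT Tconv array or the first Nr4a-TKO array 1 member was called higher and 1 lower, and without the second Nr4a-TKO array 2 and 2. Melk was higher in each of these. The Cdk1 call was lost without any one of the Nr4a-TKO, WT Treg or WT Tconv arrays. Without either Foxp3-KO array 5 members were lower.

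In Foxp3-KO preTreg 0 members rose and 5 fell against WT Tconv (Plk1, Ttk, Kif11, Kif23 and Mki67), where 10.3% and 13.7% of all genes were called higher and lower. At an unadjusted p under 0.05 the counts were 0 higher and 8 lower. The members' median was -0.19 (-0.13 with genes below background at their bound), beside -0.10 for all genes. Plk1 differed by -0.32 ± 0.08 (adjusted p = 0.0401) and Mki67 by -0.40 ± 0.10 (adjusted p = 0.0371). The count rests on single arrays: without the second Foxp3-KO array 10 members were lower, without the first 2, without either Nr4a-TKO array 2, without either WT Treg array 3, and without either WT Tconv array 1. The members' median was -0.06 without the first Foxp3-KO array and -0.26 without the second.

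Directly compared, 11 of 39 members were higher in Nr4a-TKO than in Foxp3-KO preTreg and 0 were lower, where 17.6% of all genes were called higher and 15.7% lower. The members' median was 0.25, and 0.01 for all genes. Those that rose were Ccnb1, Ccnb2, Plk1, Ttk, Melk, Kif20a, Prc1, Cenpe, Birc5, Racgap1 and Mki67, with differences of 0.33 to 0.58. In a fit over all probes, the other Ccnb1 probes gave 0.01 and 0.28, and neither was called. Mki67 was higher by 0.55 ± 0.10 (adjusted p = 0.0125) and Racgap1 by 0.53 ± 0.09 (adjusted p = 0.0102). Without the first Nr4a-TKO array 1 was called, without the second 4, without either WT Tconv array 5 and without the first Foxp3-KO array 7.

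The 29 calls in Foxp3-KO against WT Treg also depended on the spread shared by the 4 groups. They numbered 18 and 16 without the first and second WT Treg arrays and 17 without either WT Tconv array. With a limma fit of those 2 groups alone 0 members and 0 genes in all were called, although 35 members had an unadjusted p under 0.05 and the median stayed at 1.03. Both groups were hybridised in the same row of the slide.

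Other genes of mitosis, 67 of them outside the 40, moved in the same direction. Of 65 tested, 56 were lower and 1 higher in WT Treg than in WT Tconv (20.2% and 14.0% of all genes), with a median of -1.07. Against WT Treg 55 were higher and 0 lower in Nr4a-TKO (18.5% and 16.5% of all genes), with a median of 1.15. In Foxp3-KO 40 were higher and 0 lower than in WT Treg (3.28% and 3.10%), with a median of 0.85. Shcbp1, which acts at the midbody, read 1.07 and 1.19 in Nr4a-TKO, 0.89 and 0.99 in Foxp3-KO, -0.34 and -0.35 in WT Treg, and 1.11 and 1.16 in WT Tconv. Against WT Tconv 8 were higher and 9 lower in Nr4a-TKO (21.2% and 27.2% of all genes). Cdc25b, the phosphatase that starts CDK1 activation at the centrosome, rose by 1.35 ± 0.09 in Nr4a-TKO (adjusted p = 0.000542), and Stmn1, which destabilises microtubules, differed by -1.46 ± 0.14 (adjusted p = 0.00131).

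Most genes of DNA replication and G1/S were also lower in WT Treg. In WT Treg against WT Tconv 32 of 40 were lower and 0 higher (20.2% and 14.0% of all genes), with a median of -0.69. Of the same genes, 16 of 40 were lower in Foxp3-KO than in WT Tconv (13.7% of all genes), with a median of -0.30. In Nr4a-TKO 23 were higher than in Foxp3-KO (17.6% of all genes), with a median of 0.41. In Foxp3-KO against WT Treg 11 were higher (3.28% of all genes), with a median of 0.34, where the mitotic members had a median of 1.03. Whether the lists differ was not tested. Rrm2, the ribonucleotide reductase subunit made in S phase, was higher than in WT Treg by 1.87 ± 0.08 in Nr4a-TKO (adjusted p = 0.000398) and by 1.27 ± 0.08 in Foxp3-KO (adjusted p = 0.00413). Mcm3, of the replicative helicase, differed from WT Tconv by -0.66 ± 0.06 in Foxp3-KO (adjusted p = 0.00364) and by -0.92 ± 0.06 in WT Treg (adjusted p = 0.000694).

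Subunits of condensin and cohesin and of the anaphase-promoting complex, whose roles meet those of the members in mitosis, did not move as a block. Of 18 condensin and cohesin genes, 7 were lower and 1 higher in WT Treg than in WT Tconv (20.2% and 14.0% of all genes), with a median of -0.25. The gene that was higher was Smc4, a core condensin subunit, at 4.49 and 4.23 in Nr4a-TKO, 6.21 and 6.46 in Foxp3-KO, 6.48 and 6.58 in WT Treg, and 4.42 and 4.30 in WT Tconv. Smc4 separated WT Treg and Foxp3-KO from Nr4a-TKO and WT Tconv, with a difference from WT Tconv of 0.00 ± 0.13 in Nr4a-TKO (adjusted p = 1), 1.98 ± 0.13 in Foxp3-KO (adjusted p = 0.00113) and 2.18 ± 0.13 in WT Treg (adjusted p = 0.000493). That split is also the split by slide row, so for Smc4 group and row cannot be told apart. The partner of Smc4, Smc2, was lower in WT Treg by a difference of -0.97 ± 0.09 (adjusted p = 0.00185). Of 14 tested subunits of the anaphase-promoting complex, 5 were lower and 1 higher in WT Treg than in WT Tconv, with a median of -0.13.

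**Figure D4:**
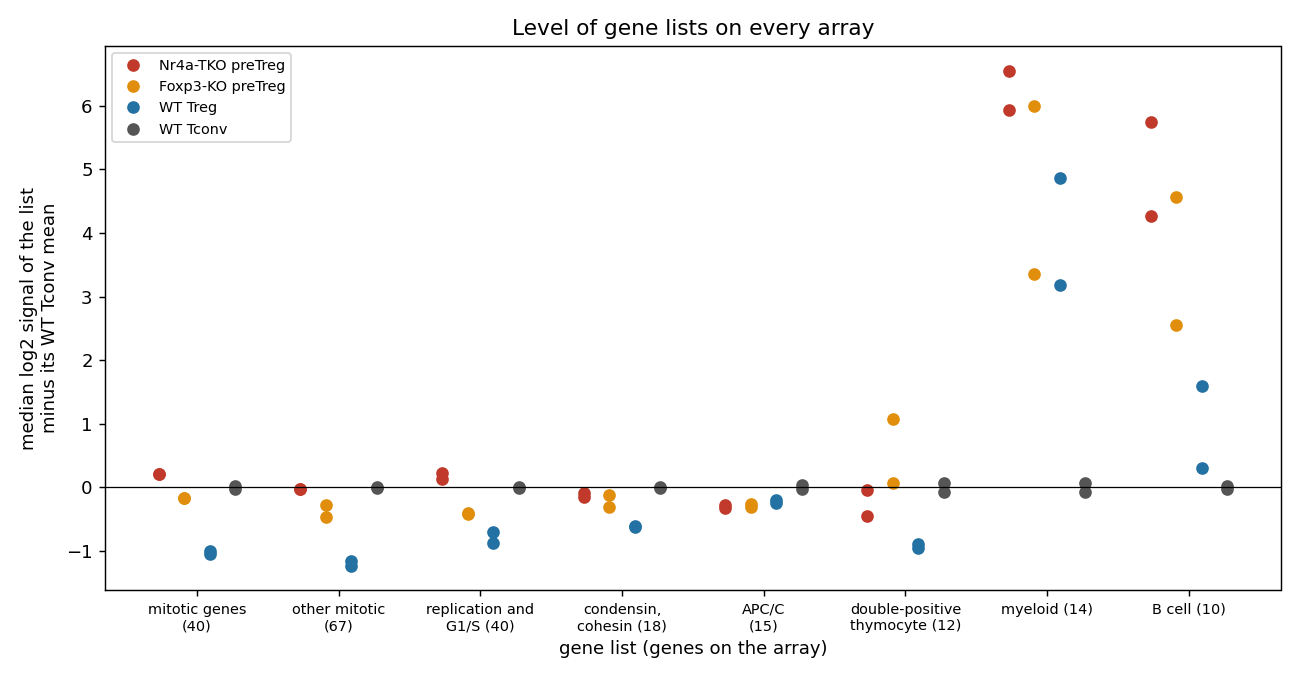
Median log2 signal of each gene list on every array, minus its mean over the WT Tconv arrays, with lists along the horizontal axis and genes on the array in brackets. Points are arrays coloured by group, and genes below background are included at their measured signal. The WT Treg points are lowest for the mitotic and replication lists, and the medians of the myeloid and B cell lists are lowest in WT Tconv.

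Regulators of these promoters split. Of 22, 9 were lower and 4 higher in WT Treg than in WT Tconv (20.2% and 14.0% of all genes), with a median of -0.30. The activators of G2/M genes read lower: Foxm1 differed by -1.12 ± 0.19 (adjusted p = 0.0101) and Mybl2, which encodes B-MYB, by -0.87 ± 0.08 (adjusted p = 0.00153). E2f1 and its partner Tfdp1, which drive S-phase genes, differed by -1.32 ± 0.11 (adjusted p = 0.00125) and -1.04 ± 0.08 (adjusted p = 0.00113). Rb1, the retinoblastoma protein that restrains E2F, was higher by 0.87 ± 0.08 in WT Treg (adjusted p = 0.00174) and by 0.74 ± 0.08 in Foxp3-KO (adjusted p = 0.00567), and differed by 0.04 ± 0.08 in Nr4a-TKO (adjusted p = 0.718). The groups with higher Rb1 were those of row 2 of the slide, so here too group and row cannot be told apart.

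Mybl2 ordered the groups: it read 2.32 and 2.45 in Nr4a-TKO, 1.52 and 1.57 in Foxp3-KO, 1.14 and 1.08 in WT Treg, and 1.94 and 2.03 in WT Tconv. All 6 comparisons of Mybl2 passed the test. Against WT Tconv it rose by 0.41 ± 0.08 in Nr4a-TKO (adjusted p = 0.0111), and its difference in Foxp3-KO was -0.43 ± 0.08 (adjusted p = 0.0188).

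Brakes of the cell cycle did not follow a single direction. Of 20, 6 were higher and 3 lower in WT Treg than in WT Tconv (14.0% and 20.2% of all genes). In Nr4a-TKO 6 were higher and 4 lower (21.2% and 27.2%), and in Foxp3-KO 6 and 1 (10.3% and 13.7%). Cdkn1a, the CDK inhibitor p21, read 1.04 and 0.91 in Nr4a-TKO, -2.28 and -2.44 in Foxp3-KO, and -2.67 and -3.34 in WT Treg, and was below background on both WT Tconv arrays. Against WT Tconv its level was up at least 63.7-fold in Nr4a-TKO (adjusted p = 0.000176). The bound was 6.31-fold for Foxp3-KO (adjusted p = 0.00186) and 4.02-fold for WT Treg (adjusted p = 0.0018). In Nr4a-TKO, the group with the highest Cdkn1a, 4 of the 39 mitotic members were higher and 2 lower than in WT Tconv, with a median of 0.08. Of all genes 21.2% were called higher and 27.2% lower there. Whether Cdkn1a and the mitotic genes are linked was not tested. Cdkn1b, the inhibitor p27, was higher in WT Treg by 0.66 ± 0.09 (adjusted p = 0.00436) and in Foxp3-KO by 0.46 ± 0.09 (adjusted p = 0.0199).

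Cdkn2c and Cdkn2a encode inhibitors of the G1 kinases CDK4 and CDK6. Cdkn2c, p18, read 1.72 and 1.43 in Nr4a-TKO, 0.52 and 0.09 in Foxp3-KO, -0.60 and -0.58 in WT Treg, and 0.59 and 0.61 in WT Tconv. Its difference from WT Tconv was 0.97 ± 0.17 in Nr4a-TKO (adjusted p = 0.0073) and -1.20 ± 0.17 in WT Treg (adjusted p = 0.00553). Cdkn2a, the locus of p16 and p19Arf, was below background on both WT Treg arrays. It was at least 2.14-fold lower in WT Treg than in WT Tconv (adjusted p = 0.00164), and Nr4a-TKO exceeded WT Treg at least 20-fold (adjusted p = 0.000451). Against WT Tconv, Cdkn2a was higher in Nr4a-TKO by 3.22 ± 0.28 (adjusted p = 0.00109). Gadd45b, induced by stress and by receptor signals, was higher by 3.15 ± 0.16 in Nr4a-TKO, 1.68 ± 0.16 in Foxp3-KO and 1.67 ± 0.16 in WT Treg.

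Of the 9 G1 cyclins and kinases tested, 5 were lower in WT Treg than in WT Tconv (20.2% of all genes). In Nr4a-TKO 6 were lower and 2 higher than in WT Tconv (27.2% and 21.2%). Myc, a driver of growth and G1 entry, differed by -0.73 ± 0.09 in Nr4a-TKO (adjusted p = 0.00298), by -0.16 ± 0.09 in Foxp3-KO (adjusted p = 0.257) and by 0.19 ± 0.09 in WT Treg (adjusted p = 0.163). Cdk6 was higher in Nr4a-TKO by 2.16 ± 0.18 (adjusted p = 0.000944). Ccnd3, the cyclin D3 used by dividing thymocytes, differed by -0.84 ± 0.19 in Nr4a-TKO (adjusted p = 0.0167) and -0.75 ± 0.19 in WT Treg (adjusted p = 0.0317), and Ccnd2 was not called in any comparison. Fzr1, which keeps the anaphase-promoting complex active in G1, was higher in Nr4a-TKO than in WT Treg by 0.43 ± 0.11 (adjusted p = 0.0309).

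**Figure D5:**
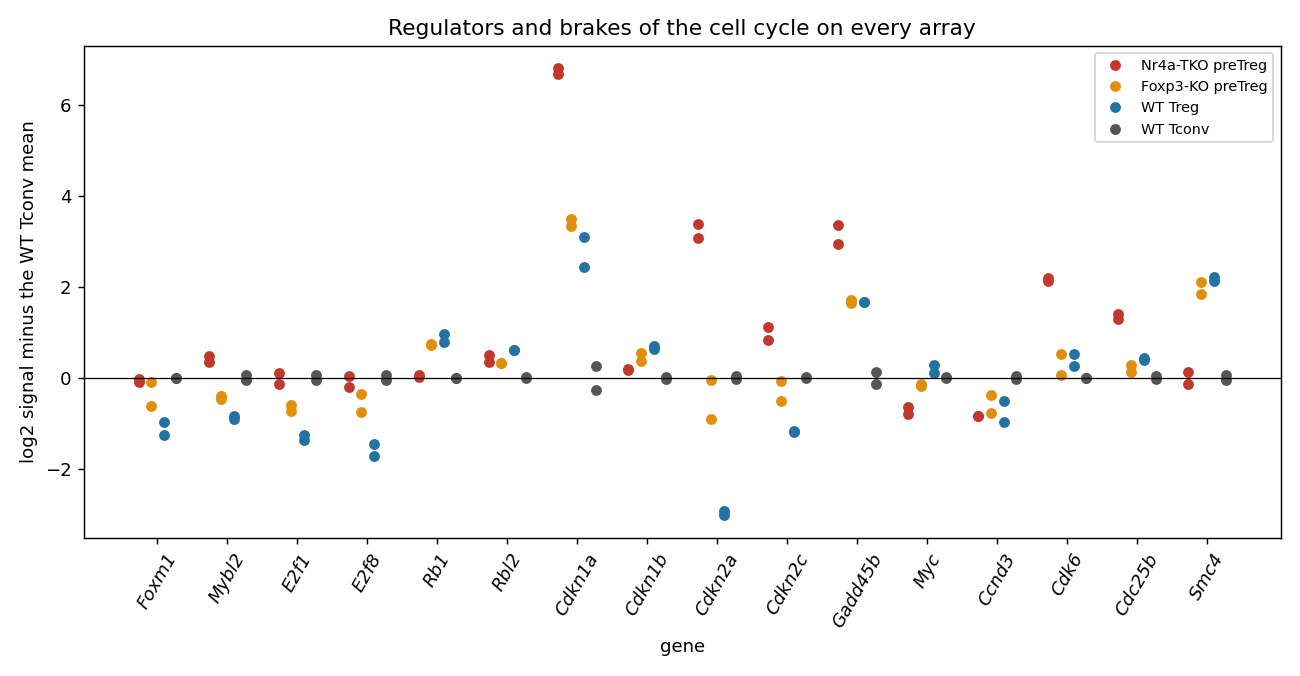
Log2 signal of 16 regulators, brakes and related genes on every array, minus the mean of the WT Tconv arrays, with genes along the horizontal axis and points coloured by group. Cdkn1a in WT Tconv and Cdkn2a in WT Treg are below background and plotted at their measured signal. Nr4a-TKO is highest for Cdkn1a, Cdkn2a, Gadd45b, Cdk6 and Cdc25b, and WT Treg is lowest for Foxm1, Mybl2, E2f1, E2f8 and Cdkn2c.

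The sorted groups also differed in markers of other cells, given here beside the mitotic genes. T cell markers were above background on all arrays, 7 of 7. Against WT Tconv, 14.0% of all genes were called higher and 20.2% lower in WT Treg. The shares were 21.2% and 27.2% in Nr4a-TKO and 10.3% and 13.7% in Foxp3-KO. Of 12 genes of CD4 CD8 double-positive thymocytes, 0 rose and 5 fell in WT Treg against WT Tconv, 1 rose and 7 fell in Nr4a-TKO, and 0 were called in Foxp3-KO (1 higher and 0 lower at an unadjusted p under 0.05). Their summed signal, in multiples of the 75th percentile, was 19.4 and 22.5 in Nr4a-TKO, 34.2 and 45.0 in Foxp3-KO, 27.2 and 22.8 in WT Treg, and 41.3 and 39.6 in WT Tconv. Both Nr4a-TKO arrays were below every other for this sum, and the recombination gene Rag2 was below background on all Nr4a-TKO and WT Treg arrays.

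Most B cell and myeloid markers rose in Nr4a-TKO and fewer were called in the other groups. Against WT Tconv, 8 of 9 B cell genes and 12 of 14 myeloid genes rose in Nr4a-TKO, 3 and 6 in Foxp3-KO, and 1 and 4 in WT Treg. Of all genes 21.2%, 10.3% and 14.0% were called higher in those groups. The remaining 2 myeloid genes fell in Nr4a-TKO. The median myeloid marker was at 1.94 and 1.32 in Nr4a-TKO, 1.38 and -1.25 in Foxp3-KO, 0.26 and -1.43 in WT Treg, and -4.68 and -4.54 in WT Tconv. The summed myeloid signal ran from 349 to 378 in Nr4a-TKO, 333 to 372 in Foxp3-KO, 359 to 373 in WT Treg and 369 to 386 in WT Tconv. The highest sum, 386, came from a WT Tconv array with 7 of the 14 genes above background, against 14 on each Nr4a-TKO array. The myeloid sum therefore does not follow the number of markers detected. The summed B cell signal was 63.3 and 16.1 in Nr4a-TKO, 20.0 and 5.43 in Foxp3-KO, 6.07 and 4.25 in WT Treg, and 2.16 and 2.07 in WT Tconv. Of the 10 B cell genes on the array, 10 and 9 were above background on the Nr4a-TKO arrays and 9 and 7 on the Foxp3-KO arrays. The counts were 7 and 4 in WT Treg and 4 and 5 in WT Tconv. Among these genes, Pax5 was below background on 7 of 8 arrays. The B cell sum was highest on the first Nr4a-TKO array and lowest on the WT Tconv arrays. Plasma cell genes were called higher than in WT Tconv in 5 of 5 in Nr4a-TKO, 1 in Foxp3-KO and 1 in WT Treg. Genes of innate-like T and NK cells had a summed signal of 2.45 and 2.52 in Nr4a-TKO, 16.9 and 3.15 in Foxp3-KO, 0.94 and 0.716 in WT Treg, and 11.9 and 11.8 in WT Tconv. Of these 7 genes, 4 were lower in WT Treg than in WT Tconv, 2 in Nr4a-TKO and 1 in Foxp3-KO (20.2%, 27.2% and 13.7% of all genes). WT Treg had the lowest sum of these genes. The Nr4a-TKO replicates differed in B cell signal. Their member medians were each 1.71, and their summed member signals were 210 and 198. The part of the markers of other cells in the differences of the mitotic genes was not tested.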

How the data were processed

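Expression was measured in 8 samples, 2 per group, and each comparison was tested on values from the scanner files. Per the file headers and the submitters' processing notes, the software was Agilent Feature Extraction 10.7.1.1, and the values are processed Cy3 intensity, background-subtracted and not scaled across arrays. A matrix of signal deposited by the authors was a constant multiple of that intensity on each array and served as an alternative. Here control and outlier spots were dropped, log2 values were set against the array's 75th percentile, and spots of a probe were averaged. RefSeq accessions named 28020 of 55681 probes, and 312 accessions had no match. A gene was tested if its brightest probe was well above background on both arrays of at least 1 group. One limma fit (version 3.58.1, R 4.3.3) held all 4 groups, with 4 residual and 1.6 prior degrees of freedom and Benjamini-Hochberg adjustment over 13494 genes in each comparison. The procedure was tested on simulated data. All arrays came from 1 slide, where row 1 held Nr4a-TKO and WT Tconv, and the rest lay in row 2.

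The members and gene lists were chosen with earlier results of these data known. Values on every array are given for the members of each role with the highest and lowest mean absolute difference over the 6 comparisons, for Mki67, Top2a, Ccnb1, Cdk1, Plk1 and Aurkb, and for members that went against the rest. They are not given for every member whose probes differed in a call, such as Mad2l1 and Kif2c. Other lists are given by counts, medians and up to 4 genes with the smallest adjusted p in a comparison, with some regulators named whatever their p. Alternatives were other scalings, background corrections, probe filters and model settings, and leaving out each array. Figures were drawn with matplotlib 3.10.9. The number of arrays limits the precision.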

Additional observations from a re-analysis of the deposited data

How the results depend on the processing

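The direction of the members' median kept its sign in each alternative tried, and a change of sign is counted as a reversal where either value was called. By that count the 1 reversal was Cdk1 in Nr4a-TKO against WT Tconv, called at 0.31 and, with the probes averaged, at -0.94 and not called. In WT Treg against WT Tconv, 1 member instead of 0 was higher, Pttg1, with quantile normalization, probes above background on all 8 arrays, probes averaged, an intensity trend, only the 2 groups compared, array weights or a replicate block. In Nr4a-TKO against WT Tconv, higher members numbered 2 with no filter on dim probes, 2 with probes averaged, 1 with median scaling and 0 at a 2-fold threshold, and lower ones 5 with array weights and 1 at 2-fold. In Foxp3-KO against WT Tconv, lower members numbered 3 with quantile normalization or array weights, 8 with median scaling, 2 with no filter, and 1 with only those groups or at 2-fold. In Nr4a-TKO against Foxp3-KO, higher members numbered 5 with array weights and 0 at 2-fold or with only those groups (10 at an unadjusted p under 0.05). There 1 was lower, Spc25, with quantile normalization, all 8 arrays above background or an intensity trend. In Foxp3-KO against WT Treg, 0 were called with only those groups. The cause of these shifts was not tested.

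Median scaling put the members' median against WT Tconv at 0.02 for Nr4a-TKO, -0.34 for Foxp3-KO and -1.36 for WT Treg, with 1.31 in Nr4a-TKO against WT Treg and 0.34 in Nr4a-TKO against Foxp3-KO. It moved the median of all genes against WT Tconv to -0.17 for Nr4a-TKO, -0.25 for Foxp3-KO and -0.23 for WT Treg. The share of calls that were higher was then 25.8% in WT Treg against WT Tconv (40.9% otherwise), 22.6% in Foxp3-KO against WT Tconv (43%), 67.1% in Nr4a-TKO against WT Treg (52.8%) and 66.7% in Nr4a-TKO against Foxp3-KO (52.9%). With normexp the medians were -1.07 in WT Treg and -0.11 in Foxp3-KO against WT Tconv, 1.06 in Nr4a-TKO and 0.83 in Foxp3-KO against WT Treg, and 0.18 in Nr4a-TKO against Foxp3-KO. The median was -0.14 in Foxp3-KO against WT Tconv with quantile normalization, and in Nr4a-TKO against WT Treg 1.27 with all 8 arrays above background and 1.15 with probes averaged.

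Leaving out each array in turn gave 0 to 1 higher and 29 to 36 lower members in WT Treg against WT Tconv (calls lost at least once were Cdc25c, Kif20a, Kif15, Hmmr, Dlgap5, Cenpf and Ndc80), 1 to 4 higher and 1 to 5 lower in Nr4a-TKO against WT Tconv, and 1 to 10 lower in Foxp3-KO against WT Tconv, with medians of -0.26 to -0.06. It gave 30 to 36 higher in Nr4a-TKO against WT Treg (medians 1.17 to 1.29), 16 to 30 in Foxp3-KO against WT Treg (0.88 to 1.13), and 1 to 12 higher and 0 to 1 lower in Nr4a-TKO against Foxp3-KO (0.11 to 0.36). A group left with 1 array was assumed to vary like the others.

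No label says what a replicate number marks. Deviations of same-numbered arrays correlated at 0.148 to 0.259 among Nr4a-TKO, Foxp3-KO and WT Treg, and at -0.0285 to -0.0105 between these and WT Tconv, so whether the numbers pair the samples is not settled. With the replicate block, 1 member was higher and 35 lower in WT Treg against WT Tconv, 2 higher and 2 lower in Nr4a-TKO and 2 lower in Foxp3-KO against WT Tconv (Plk1, Ttk and Mki67 were no longer called), 35 higher in Nr4a-TKO and 24 in Foxp3-KO against WT Treg, and 7 higher in Nr4a-TKO against Foxp3-KO. With 2 arrays a group, small differences could be missed, and Cdc25c, Ttk and Cenpf lay near background.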
